A study of Mus musculus with 40 samples.

Results

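Cloned mouse embryos were compared between the 1-cell and the 2-cell stage. Somatic cell nuclear transfer (SCNT) places the nucleus of a body cell into an egg whose own chromosomes have been removed, and here the donor was a cumulus cell, one of the cells that surround the egg in the ovary. The members are the untreated SCNT arrays, 4 of 2-cell embryos and 3 of 1-cell embryos, 7 of the 39 arrays with values. A replicate labelled 2 exists for the 1-cell stage too, but its column is empty, so the stage has replicates 1, 3 and 4. The embryos are labelled B6D2, with a B6D2 female as source of the donor cell, and MEMα as culture medium. The medium is not named for 1-cell replicate 1, and 2-cell replicate 2 carries neither donor nor medium in its label. The other groups that were set beside the clones hold 4 arrays each. They are 2-cell and 1-cell SCNT embryos kept in MEMα with α-amanitin, which blocks RNA polymerase II, and 2-cell and 1-cell B6D2 fertilized and parthenogenetic embryos without it. Amanitin was read from a letter A before the replicate number in the titles. The medium label names it for most such samples, but 1-cell SCNT replicate 4 of that group carries no such label. Parthenogenetic embryos develop from an activated egg without sperm. KSOM is named as the medium of 1 fertilized sample and no medium is named for the other fertilized samples or the parthenogenetic ones, so medium and origin cannot be told apart. The labels state neither how many embryos went into a sample nor the hour of collection, and nothing in them gives the replicates separate cultures as their source. The p-values therefore measure the spread between these samples, which may be technical.

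An egg stops transcribing before it matures and lives on RNA that it stored while growing. After fertilization, or after activation of a cloned egg, the stored maternal RNA is broken down while the embryo's own genome begins to be read, in the mouse with a minor wave at the 1-cell stage and a major wave at the 2-cell stage. In a clone the genome that has to take over is that of a differentiated cell, whose chromatin and DNA methylation differ from those of egg and sperm. The change between the stages can thus hold, among other things, the loss of the egg's RNA and the first products of the donor genome. Their parts in the measured differences were not tested.

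Each value is the log2 intensity of an Affymetrix probe set hybridized with RNA that the labels give as polyA RNA. A difference of 1 is a 2-fold change, and differences are 2-cell minus 1-cell unless stated otherwise. The words rose and fell are kept for genes with a limma adjusted p under 0.05 (Benjamini-Hochberg over 14916 genes). In 2259 of the 9058 genes that passed, the mean of 1 stage was below 5.34, the overall median, and there the constant added before taking logs sets part of the difference. Each RNA extract is from whole embryos, of 1 cell or 2 cells by stage, and the number of embryos is not given. All arrays were scaled to the same level, so the amount of RNA per cell or per embryo cannot be read from a difference.

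The stage labels were set against marker genes. The summed linear level of 8 measured oocyte markers ran from 24363.5 to 26293.5 on the 1-cell arrays and from 4468.6 to 5028.2 on the 2-cell arrays, and 7 of the 8 fell. The sum of 6 measured markers of the 2-cell stage, of 10 chosen, ran from 1522.8 to 1814.6 and from 5381.6 to 6356.6, and 4 of the 6 rose. Zscan4c and Zscan4d were among the markers that could not be tested. Markers of cumulus and granulosa cells, the donor's kind, could be tested in 7 of 10 cases. Their sum was 556.5 to 624.7 at the 1-cell and 389.3 to 457.4 at the 2-cell stage, and of them Tnfaip6 and Cyp11a1 fell. Sperm markers (4 of 6 tested, sums 156.9 to 237.9 and then 106.1 to 182.6, Prm2 fell) and blood markers (3 of 6 tested, sums 132.1 to 158.1 and then 153.3 to 211.6, Cd74 rose) were summed in the same way, and 2 of the 4 sperm markers lay under the overall median at both stages. The part of these cell types in the results was not tested. Some control probes also differed between the stages in clones. The poly(A) control transcripts, which are added to a sample before labelling, averaged 3.6 (range 3.518 to 3.666) on the 1-cell and 7.986 (7.556 to 8.47) on the 2-cell arrays, and the 18S ribosomal RNA probes 13.247 (SD 0.142, n = 3) and 10.809 (SD 0.949, n = 4). The controls added at hybridization averaged 9.522 and 9.587. In 1-cell clones with amanitin the poly(A) controls were low too (3.725). From the 1-cell to the 2-cell stage they went from 5.879 to 7.107 in fertilized and from 7.357 to 7.135 in parthenogenetic embryos. They thus did not follow the stage alike in each origin. Stage and handling of the samples cannot be told apart, and the part of these controls in the differences below was not tested.

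Between the stages the clones changed most of their measured RNA. Of 14916 genes, 9058 passed the test (60.7%), 3920 with a rise (26.3%) and 5138 with a fall (34.4%). At least 2-fold rises were seen in 2911 genes (19.5%) and falls of that size in 3481 (23.3%). The rises reached further than the falls: 239 genes rose and 91 fell at least 16-fold, and the 95th percentile of the difference was 2.837 against -2.519 for the 5th. The 3 1-cell and 4 2-cell arrays did not overlap in 4082 genes with the 2-cell side higher (27.4%) and 5278 with it lower (35.4%). Correlations across genes were 0.9669 to 0.9735 between arrays of a stage and 0.6914 to 0.7015 between stages, where genes are not independent replicates. The median difference over all genes was -0.14, and it was 0.0713 in the values as deposited and -0.267 after median centring, with 4546 rises against 4543 falls and 3395 against 5735. Medians of gene groups are to be read beside this shift.

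The 10 genes with the largest rises all came from 1-cell means under the overall median. They were picked among genes whose arrays did not overlap between the stages, so that separation is part of the choice. Over all genes 27.4% had such arrays with the 2-cell side higher. Obox6, a homeobox gene of the Obox family, read 4.36, 3.81 and 3.70 on the 1-cell arrays and 11.76, 11.75, 11.93 and 11.69 on the 2-cell arrays. All 4 2-cell values lay far above the 1-cell ones, with a difference of 7.82 (SE 0.31, adjusted p = 1.62e-23). Calcoco2, an autophagy receptor, went from 4.09, 3.12 and 3.17 to 11.16, 10.97, 11.47 and 11.17, a rise of 7.73 (SE 0.43, adjusted p = 8.59e-19). Wdr77, the partner of the arginine methyltransferase PRMT5, rose by 7.62 (SE 0.30, adjusted p = 1.68e-23), from 4.02, 3.80 and 4.42 to 11.53, 11.78, 11.65 and 11.84, and again no array overlapped. Pramel7, a PRAME-family gene known from naive pluripotent cells, read 3.91, 4.07 and 5.44 and then 11.64, 11.96, 11.74 and 11.57, a rise of 7.25 (SE 0.30, adjusted p = 1.02e-22). One of its 1-cell arrays, replicate 4, stood above the other two. Riox1, an oxygenase that acts on a ribosomal protein, rose by 7.49 (SE 0.21), Ppp2cb, a catalytic subunit of the phosphatase PP2A, by 7.39 (0.35), the small GTPase gene Rab20 by 7.31 (0.23) and the arginine methyltransferase gene Prmt6 by 6.95 (0.45). Crxos, a homeobox gene of early embryos, rose by 8.75 (0.39) on the probe set used and by 2.07 on its other one. Tmppe rose by 7.24 (0.27), and its probe sets ran from 2.0 to 7.24. In Obox and Pramel genes a probe set may also bind RNA of a close relative, which was not tested.

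The largest falls often ended under the overall median. These genes too were picked among those without overlapping arrays, beside 35.4% of all genes with the 2-cell side lower. Crabp2, which binds retinoic acid in the cytoplasm, read 10.34, 10.73 and 10.65 at the 1-cell and 3.33, 3.81, 4.74 and 4.76 at the 2-cell stage, a difference of -6.41 (SE 0.30, adjusted p = 2.2e-21). Pabpn1l, an oocyte poly(A) binding protein that takes part in maternal mRNA decay, fell from 10.79, 10.69 and 10.68 to 4.96, 4.23, 5.18 and 3.71 (-6.20, SE 0.26, adjusted p = 1.44e-22). Zfp57, a zinc finger protein that protects methylation at imprinted regions, read 11.33, 11.23 and 11.44 and then 3.84, 6.14, 5.09 and 5.50 (-6.19, SE 0.40, adjusted p = 9.44e-17). In these genes the 1-cell arrays lay close together and the 2-cell arrays were spread more widely, all of them lower. Oas1e, of the oligoadenylate synthetase family, fell by 5.99 (SE 0.15). Also lower were the receptor gene Gpr1 (-5.96, SE 0.16), Zfp383 (-5.71, SE 0.22), Ccdc14 (-6.39, SE 0.30), Gramd1c (-5.54, SE 0.29) and the piRNA-pathway gene Tdrd12 (-5.53, SE 0.28). Ewsr1 differed by -5.65 on the probe set used, but another probe set of the gene rose, with a difference of 2.30.

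**Figure D1:**
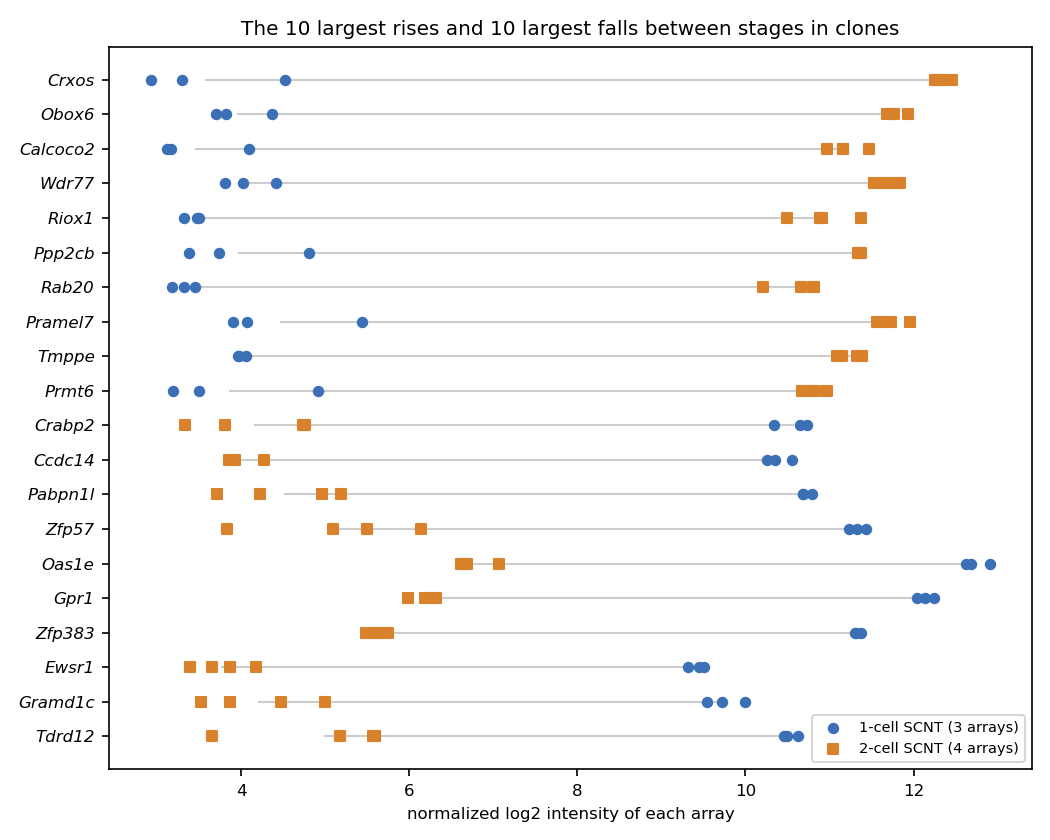
Normalized log2 intensity (x axis) of the 10 genes with the largest rises and the 10 with the largest falls, with 1 point per array and the stages in blue circles (1-cell SCNT, 3 arrays) and orange squares (2-cell SCNT, 4 arrays). The genes were picked among those without overlapping arrays, so the points of the stages are apart in each by choice. The low stage sits near the floor for most genes, for example Obox6 at 4.36, 3.81 and 3.70 and Crabp2 at 3.33, 3.81, 4.74 and 4.76.

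Genes were then grouped into 42 lists by function. The lists that moved furthest upward were cytosolic ribosomal proteins (median difference 3.04 over 44 genes), 2-cell stage genes (1.69 over 22), purine and pyrimidine synthesis (1.43 over 24), ribosome assembly factors (1.39 over 78), subunits of RNA polymerases I and III (1.29 over 35) and the respiratory chain (1.21 over 72). The oocyte list moved furthest down (-1.78 over 33), followed by DNA methylation factors (-0.53 over 22), factors that store and degrade maternal mRNA (-0.45 over 55) and meiotic regulators (-0.40 over 25). Many of the other lists held both rises and falls, with medians nearer 0 whose sign can turn with the scaling. A list mixes genes with unlike roles, and its median describes only its measured members. The genes named from a list were mostly picked for large differences, so arrays that do not overlap are in part a result of that choice. Over all genes 27.4% had such arrays with the 2-cell side higher and 35.4% with it lower.

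**Figure D2:**
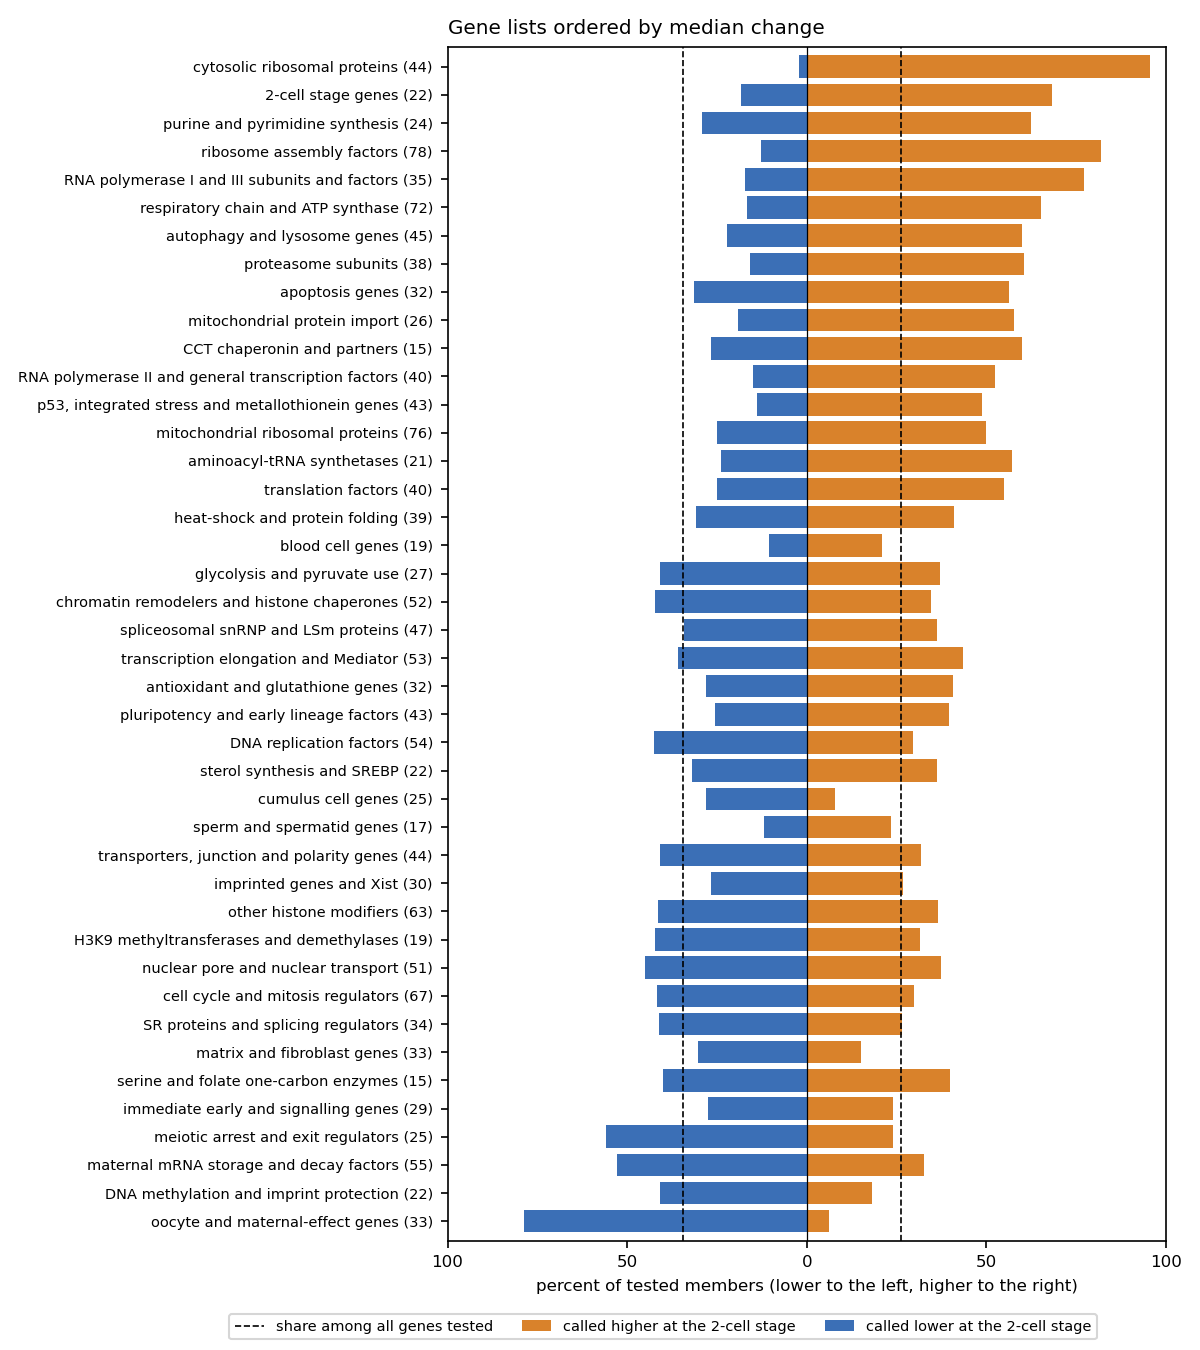
Percent (x axis) of the tested members of each of 42 gene lists, their number in parentheses, that rose (orange, to the right) or fell (blue, to the left) in SCNT embryos between the 1-cell and the 2-cell stage, with dashed lines for the shares among all genes tested. Ribosomal proteins are at 95.5% rises and oocyte genes at 78.8% falls, beside 26.3% rises and 34.4% falls over all genes.

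The oocyte's own genes were mostly lower at the 2-cell stage. Of 33 tested oocyte and maternal-effect genes, 26 fell, 2 rose and 5 did not pass, beside 34.4% falls over all genes, and standard errors ran from 0.079 to 0.44. Ooep, a scaffold of the subcortical maternal complex that the embryo needs for its first divisions, read 13.11, 13.11 and 12.99 and then 8.33, 8.34, 7.83 and 7.90. The 4 2-cell arrays all lay below the 1-cell arrays, with a difference of -4.97 (SE 0.13, adjusted p = 2.99e-29). Other members of that complex fell too, namely Nlrp5 (-2.58), Tle6 (-1.92), Padi6 (-3.16) and Khdc3 (-1.23). The germ-cell transcription factors Nobox (-3.95) and Lhx8 (-3.75) fell, as did the oocyte growth factors Gdf9 (-2.09) and Bmp15 (-1.78). Of the zona pellucida genes, which code for the egg coat, Zp2 fell by 1.73 and Zp3 fell by 0.78. The rises were of Trim28 (1.94), a corepressor that the embryo also uses, and Cops3 (0.70), which missed the threshold after median centring. Dppa3, also called Stella, which protects maternal methylation, was at 12.75 (SD 0.082, n = 3) and 12.57 (SD 0.036, n = 4) and did not pass (difference -0.19, adjusted p = 0.184), but passed as lower in the values as deposited (-0.52) and after median centring (-0.85).

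Regulators of meiosis and of the stored mRNA also fell more often than they rose, beside 34.4% falls and 26.3% rises over all genes. Among 25 meiotic genes 14 fell (56.0%) and 6 rose (24.0%, median -0.40, -1.07 after median centring). Mos, the kinase that starts the signal holding the egg in metaphase, read 6.25, 6.66 and 6.42 and then 3.75, 3.82, 3.0 and 3.51, a difference of -2.92 (SE 0.26, adjusted p = 9.82e-13). The 2-cell arrays were all lower and lay under the overall median, and with the larger added constant the difference was -1.93. Sgo2a, a guardian of meiotic cohesin, fell by 3.98 and the meiotic cyclin gene Ccnb3 fell by 2.96, whereas Cdc25c and Cdk1, of the engine of mitotic entry, rose by 3.09 and 2.54. Of 55 factors of mRNA storage and decay, 29 fell (52.7%) and 18 rose (32.7%). Zar1, which holds stored mRNA in oocytes, fell by 3.69 (SE 0.15). The polyadenylation regulator Cpeb1 (-3.08, SE 0.15), the mRNA-binding activator Dazl (-3.01, SE 0.16) and Cnot4, of the deadenylase complex (-3.33, SE 0.15), fell as well. The exosome nuclease gene Dis3 rose by 3.40 (0.30).

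Several of these genes have a relative that is used in other cells, and 17 such pairs could be tested on both sides. In 5 of these pairs the form named here as that of oocytes or germ cells fell while the other rose. Over all genes 34.4% fell and 26.3% rose. The naming does not rest on 1-cell levels here. In some pairs the named form read lower, as Rps4l (6.0) against Rps4x (10.07), and in others higher, as Pabpc1l (9.54) against Pabpc1 (7.44). Pabpc1l, the poly(A) binding protein of oocytes, read 9.60, 9.72 and 9.31 at the 1-cell and 6.31, 5.78, 5.99 and 6.44 at the 2-cell stage, a difference of -3.41 (SE 0.21, adjusted p = 2.91e-17). Pabpc1, the form of other cells, went the other way, from 7.74, 7.16 and 7.44 to 12.79, 12.88, 12.94 and 12.93 (5.44, SE 0.16, adjusted p = 1.71e-27), and no array of 1 stage overlapped the other in either gene. The mean of the Pabpc1 probe sets rose by 3.14. Btg4, the adaptor that brings the deadenylase to maternal mRNA, fell from 13.45, 13.49 and 13.49 to 11.86, 11.55, 11.40 and 11.79 (-1.83, SE 0.085, adjusted p = 2.85e-21). Btg1, a relative, rose from 6.36, 5.69 and 5.53 to 10.48, 10.44, 10.57 and 10.54 (4.65, SE 0.24, adjusted p = 8.05e-20). The kinase gene Aurkc, of meiosis, fell by 3.74 and Aurkb, of mitosis, rose by 1.35. The Y-box genes Ybx2 and Ybx1 differed by -2.10 and 0.39, but the rise of Ybx1 was lost in the values as deposited (0.068) and turned after median centring (-0.26). The deadenylase genes Cnot6l and Cnot6 differed by -1.15 and 0.91, and by -1.75 and 0.46 after median centring. In 5 more pairs the oocyte form fell and the other did not pass: Pabpn1l and Pabpn1 (0.049), Kpna7 (-3.91) and Kpna2 (-0.15), Ldhb (-2.40) and Ldha (0.58), Wee2 (-1.20) and Wee1 (0.46), and Patl2 (-1.25) and Patl1 (-0.21). After median centring Pabpn1, Kpna2 and Patl1 passed as lower (-0.84, -0.93 and -0.55). The 4 probe sets of Pabpn1 disagreed, with 2 passing as higher, 1 as lower and differences from -1.57 to 2.01. Ldha passed as higher without 2-cell replicate 3 (1.02) and Wee1 without 1-cell replicate 1 (0.84). Both forms fell in Elavl2 and Elavl1, Bcl2l10 and Bcl2l1, Lsm14b and Lsm14a, Cdc25b and Cdc25a, and Ddx4 and Ddx3x, although the fall of Elavl1 (-0.67) was lost in the values as deposited (-0.46). The pairs Taf4b and Taf4 (1.83 and 0.069, the second not passing and at -0.35 after median centring) and Rps4l and Rps4x (4.37 and 2.21) did not show a fall of the form named as that of the germ line.

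**Figure D3:**
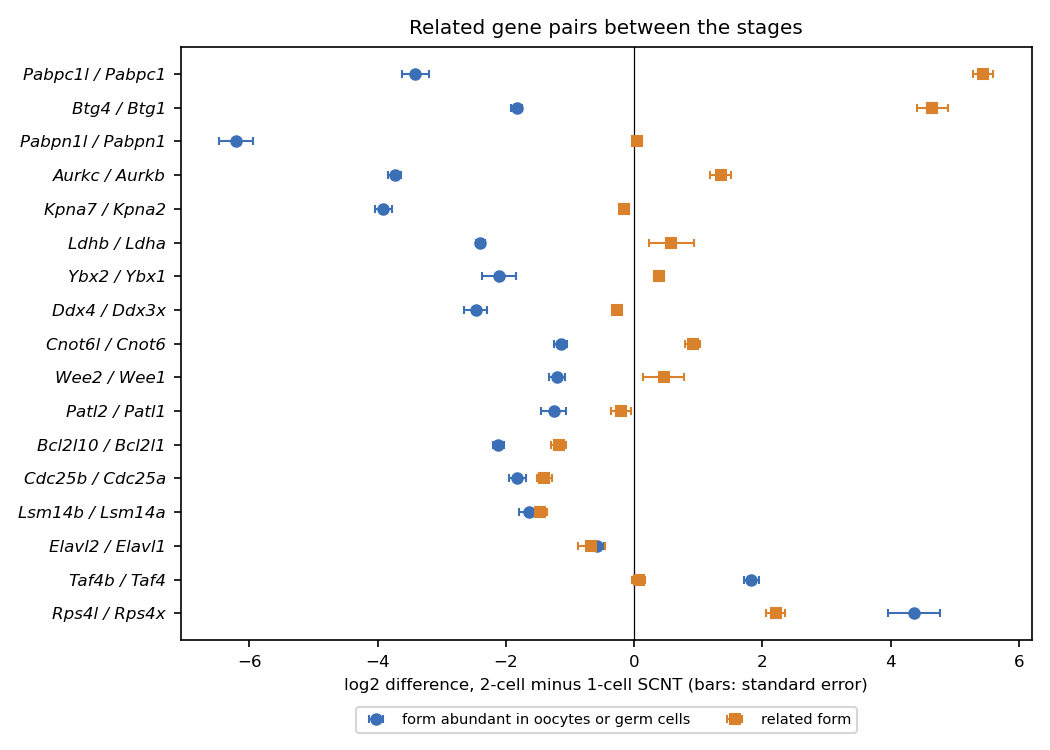
Log2 difference, 2-cell minus 1-cell SCNT (x axis), of both genes of each pair of related genes, with bars for the standard error. Blue circles are the form named as that of oocytes or germ cells and orange squares the related form. The markers lie on opposite sides of 0 for Pabpc1l and Pabpc1 (-3.41 and 5.44) and for Btg4 and Btg1 (-1.83 and 4.65).

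The machinery that makes ribosomes rose nearly as a whole. Of 44 measured cytosolic ribosomal proteins 42 rose, 1 fell and 1 did not pass (95.5% rises beside 26.3% over all genes), with a median of 3.04 and standard errors of 0.11 to 0.47. With each of the 3 scalings 40 to 42 of them rose. Rpsa, a protein of the small subunit, read 7.46, 7.10 and 6.99 on the 1-cell and 12.23, 12.01, 12.15 and 12.07 on the 2-cell arrays, a difference of 4.94 (SE 0.27, adjusted p = 3.08e-19). Rps26 went from 7.20, 7.16 and 7.56 to 12.36, 12.30, 12.24 and 12.12 (4.95, SE 0.25, adjusted p = 4.69e-20) and Rpl41, of the large subunit, from 7.74, 7.93 and 7.32 to 12.24, 12.67, 12.76 and 12.49 (4.88, SE 0.20, adjusted p = 3.32e-23). In these 3 genes, named for their large rises, the stages were apart on all arrays. Rps19 rose by 5.37 and Rps15 by 4.93. Rps6 was the member that fell (-1.02, adjusted p = 0.0188), but the call was lost in the values as deposited and without 1-cell replicate 4 or 2-cell replicate 4. Rpl39 did not pass (0.25, adjusted p = 0.433). The arrays measure these genes beside many near-identical pseudogenes and retrocopies, whose RNA a probe set may also bind.

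Promoters of some members of these groups are shown because the groups moved together. The printed sequence is the 250 bases before the RefSeq start site on GRCm38.p6, 5′ to 3′ along the gene's strand, with the letters CCGGAAG (the core that ETS-family factors bind) or GCGCATGC (that of NRF1) in capitals on either strand. The 6 rising genes were chosen after their values were seen and because each holds a motif, although CCGGAAG is in only 24.2% to 44.0% of the promoters of their lists. Ooep is from the falling oocyte list, and no contrast between it and the 6 can be read from this choice. The regions are chr10:128549169-128549418 (minus strand) for Rpl41, chr10:128626507-128626756 (minus) for Rps26, chr9:120127516-120127765 (plus) for Rpsa, chr13:81711014-81711263 (minus) for Polr3g, chr16:57121464-57121713 (plus) for Tomm70a, chr9:44920743-44920992 (minus) for Atp5l and chr9:78378589-78378838 (minus) for Ooep.
Rpl41: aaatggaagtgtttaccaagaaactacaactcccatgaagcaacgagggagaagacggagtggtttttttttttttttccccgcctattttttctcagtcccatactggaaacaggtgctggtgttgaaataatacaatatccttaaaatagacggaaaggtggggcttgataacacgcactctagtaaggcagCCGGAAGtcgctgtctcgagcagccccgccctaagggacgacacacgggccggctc
Rps26: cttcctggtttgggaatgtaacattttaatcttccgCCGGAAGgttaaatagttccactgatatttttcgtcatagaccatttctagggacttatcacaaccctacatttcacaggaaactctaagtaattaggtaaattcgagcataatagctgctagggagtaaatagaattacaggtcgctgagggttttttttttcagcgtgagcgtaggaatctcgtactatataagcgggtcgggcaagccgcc
Rpsa: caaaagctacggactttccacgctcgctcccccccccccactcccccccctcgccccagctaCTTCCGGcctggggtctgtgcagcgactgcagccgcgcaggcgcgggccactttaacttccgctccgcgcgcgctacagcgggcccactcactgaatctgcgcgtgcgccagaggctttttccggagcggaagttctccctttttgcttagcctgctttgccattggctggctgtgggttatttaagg
Polr3g: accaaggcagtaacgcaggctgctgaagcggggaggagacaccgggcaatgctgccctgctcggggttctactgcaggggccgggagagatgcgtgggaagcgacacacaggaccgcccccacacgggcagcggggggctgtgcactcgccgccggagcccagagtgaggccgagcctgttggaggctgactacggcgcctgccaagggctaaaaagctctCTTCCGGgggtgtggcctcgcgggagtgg
Tomm70a: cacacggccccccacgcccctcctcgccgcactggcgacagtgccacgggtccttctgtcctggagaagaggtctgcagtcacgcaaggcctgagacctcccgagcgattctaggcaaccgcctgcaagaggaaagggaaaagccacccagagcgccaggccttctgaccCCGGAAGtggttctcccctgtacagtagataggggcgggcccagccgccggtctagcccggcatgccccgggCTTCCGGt
Atp5l: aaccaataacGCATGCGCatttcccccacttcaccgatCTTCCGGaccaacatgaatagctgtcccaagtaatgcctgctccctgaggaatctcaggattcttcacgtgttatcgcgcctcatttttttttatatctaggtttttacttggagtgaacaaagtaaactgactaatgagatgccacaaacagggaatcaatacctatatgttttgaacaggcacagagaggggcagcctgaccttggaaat
Ooep: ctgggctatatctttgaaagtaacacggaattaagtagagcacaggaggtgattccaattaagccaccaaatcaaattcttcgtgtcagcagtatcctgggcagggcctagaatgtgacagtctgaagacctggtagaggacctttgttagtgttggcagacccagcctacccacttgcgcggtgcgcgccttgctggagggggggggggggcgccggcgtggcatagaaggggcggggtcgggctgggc
Of the 46 promoters found for 39 of the 44 measured ribosomal protein genes, 43.5% hold CCGGAAG on 1 of the strands within the 300 bases from 250 before to 50 after the start, beside 8.9% of all 32851 promoters of that length. Among the genes tested, 79.8% had a promoter in the table, too few for a valid share, and 14.5% of those promoters hold it. The share is 42.1% for genes of RNA polymerases I and III, 44.0% for mitochondrial import, 41.2% for the proteasome, 34.7% for mitochondrial ribosomal proteins and 24.2% for the respiratory chain, 37.5% for the CCT chaperonin and 30.8% for RNA polymerase II. It is also 34.5% for DNA replication factors and 24.6% for factors of mRNA storage and decay, lists with more falls than rises, and 11.1% for oocyte genes. GCGCATGC is in 15.2% of respiratory chain and 14.5% of DNA replication promoters, 4.5% of those found for the genes tested and 2.7% of all. Tomm70a holds CCGGAAG at 2 places, 80 and 8 bases before the start, Polr3g at 29 and Rpl41 at 56, and the printed bases of Ooep hold neither motif. A match is a description of letters, not a bound site.

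Ribosome assembly rose with the ribosomal proteins. Of 78 assembly factors 64 rose and 10 fell (median 1.39), beside 26.3% rises and 34.4% falls over all genes. Fbl, the fibrillarin that methylates ribosomal RNA in the nucleolus, read 7.13, 7.23 and 6.60 and then 11.35, 11.08, 11.18 and 11.27, a difference of 4.23 (SE 0.32, adjusted p = 8.39e-15), with all 2-cell arrays higher. Rrp9, of the complex that cuts the pre-ribosomal RNA, rose by 5.49, Nop16 by 5.25, Nol11 by 4.07 and Rrp12 by 3.62. Against the direction of the list, Sbds, which helps to release a factor from new large subunits, fell by 1.52 and Rrp8 fell by 2.38. Among 35 subunits and factors of RNA polymerases I and III, which transcribe ribosomal RNA and transfer RNA, 27 rose and 6 fell (median 1.29). Polr3g, a polymerase III subunit of stem cells, read 5.79, 5.71 and 6.09 and then 10.35, 10.71, 10.49 and 10.09, all 2-cell arrays higher (4.55, SE 0.33, adjusted p = 2.73e-15). Polr1c, shared by both enzymes, rose by 4.33, and Taf1c and Taf1d, of the factor that selects ribosomal DNA promoters, by 3.56 and 3.15, while their partner Taf1a fell by 1.11. Enzymes that make purines and pyrimidines, the building blocks of RNA, rose in 15 of 24 cases and fell in 7. Nme2, which makes nucleoside triphosphates, rose by 6.93 (SE 0.29), Nme1 by 5.67 (0.27), Prps1, which makes the ribose donor, by 5.64 (0.41) and Impdh1, of guanine nucleotide synthesis, by 2.76 (0.29). The adenine branch enzyme Adss fell by 2.55 and Dhodh, of pyrimidine synthesis, fell by 1.68.

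Genes that make and process messenger RNA were divided, and their counts are to be read beside 26.3% rises and 34.4% falls over all genes. RNA polymerase II subunits and general transcription factors rose in 21 of 40 cases and fell in 6 (median 0.51, 0.11 after median centring). Gtf2e1, of TFIIE, rose by 3.34 (SE 0.32), Gtf2h4, of TFIIH, by 2.98 (0.21), and the polymerase subunits Polr2h and Polr2f by 3.08 and 2.20. Gtf2b, the factor that links the polymerase to the promoter complex, fell by 2.87 (0.12), and so did the TFIID subunits Taf5 (-2.40) and Taf3 (-1.72). Elongation factors and Mediator subunits rose in 23 and fell in 19 of 53 cases (median 0.071, -0.19 after median centring). Ell2, which speeds elongation, rose by 3.90, Hexim1, which holds back the elongation kinase P-TEFb, by 3.34, and Supt5, of the pausing factor DSIF, by 2.33. The Mediator subunit Med20 rose by 2.06, and Med30 (-3.10) and Med17 (-2.50) fell. The spliceosome held 17 rises and 16 falls among 47 snRNP and LSm proteins (median 0.080, -0.28 after median centring), among them Snrpb (4.0) and Snrnp35 (3.70) on the rising side and Snrnp27 (-2.50) and Prpf6 (-2.43) on the falling side. SR proteins and other splicing regulators fell in 14 (41.2%) and rose in 9 (26.5%) of 34 (median -0.21), not far from the shares of all genes. When the probe sets of each gene were averaged, 10 fell and 16 rose (0.30). Tra2a rose by 4.13 and the neuronal-type regulator Ptbp2 fell by 1.53. Probe sets of the same gene passed in opposite directions for Hnrnpu, Rbm39, Srsf2 and Srrm1. Nuclear pore and transport genes fell in 23 and rose in 19 of 51 (median -0.15, 0.090 in the mean of probe sets). The transfer RNA exporter gene Xpot rose by 3.94 and the importer of SR proteins Tnpo3 by 3.61, and the pore subunits Nup37, Sec13 and Nup54 fell (differences -2.48, -2.25 and -2.04).

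Protein synthesis and turnover rose in part, beside 26.3% rises and 34.4% falls over all genes. Translation factors rose in 22 and fell in 10 of 40 cases (median 0.41), and after median centring the counts were 17 and 17 with a median of -0.22. Subunits of the initiation factor eIF3 were among the rises, Eif3f by 3.25 (SE 0.18), Eif3c by 3.11 (0.23) and Eif3k by 3.09 (0.22), and the helicase gene Eif4a1 fell by 1.55 (0.090). Eif1a, a known early product of the mouse embryo's genome, rose by 1.60 (0.30), and by 2.96 in the mean of its probe sets. Aminoacyl-tRNA synthetases, which charge transfer RNA, rose in 12 and fell in 5 of 21 (median 0.45, 0.027 after median centring), from Mars1 at 3.48 to Sars at -3.28. Proteasome subunits rose in 23 and fell in 6 of 38 (median 0.97, standard errors 0.080 to 0.34), with 18 rises, 12 falls and a median of 0.41 after median centring. Psmb5, a catalytic subunit, read 6.83, 6.96 and 6.97 and then 10.90, 10.81, 10.95 and 10.92, a difference of 3.98 (SE 0.24, adjusted p = 4.14e-18), with the arrays of the stages apart. Psmb4, Psma3 and Psmd14 rose by 3.28, 2.91 and 2.66, and Psmd10, an assembly chaperone, fell by 3.83. The list of the ring chaperonin CCT, which folds actin and tubulin, and its partners had 9 rises and 4 falls of 15 (median 0.66, 0.12 after median centring). Its subunits Cct6a and Tcp1 rose by 4.86 and 2.79, while the prefoldin subunits Pfdn4 and Pfdn1, which hand it substrates, fell (differences -3.24 and -2.32), and Pfdn6 rose by 3.76. Autophagy and lysosome genes rose in 27 and fell in 10 of 45 (median 1.12, 0.62 after median centring). Beside Calcoco2, several lysosomal proteases rose: Ctsz by 6.25 (SE 0.36), Ctsc by 6.15 (0.40), Ctsl by 5.39 (0.19) and Ctsb by 3.39 (0.14), with Ctsh as an exception at -1.80. Atg5, which is needed to extend the autophagosome membrane, fell by 3.19 (0.16).

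Mitochondrial genes rose more often than they fell, beside 26.3% rises and 34.4% falls over all genes. Subunits of the respiratory chain and ATP synthase rose in 47 (65.3%) and fell in 12 (16.7%) of 72 cases (median 1.21, standard errors 0.093 to 0.52). Atp5g1, a subunit of the ATP synthase rotor, read 5.95, 6.69 and 6.45 and then 11.32, 10.50, 10.96 and 11.16, a difference of 4.62 (SE 0.23, adjusted p = 1.5e-20). Atp5l, another ATP synthase subunit, went from 5.15, 5.74 and 5.93 to 8.03, 7.89, 7.68 and 7.65 (2.21, SE 0.34, adjusted p = 3.56e-07). Neither gene had overlapping arrays. Atp5o rose by 4.41 and the complex I subunits Ndufa12 and Ndufc1 by 3.62 and 3.58, while Ndufa8 of the same complex fell by 3.28. The import machinery rose in 15 (57.7%) and fell in 5 (19.2%) of 26 (median 0.69, 0.32 after median centring). Tomm20, the receptor on the outer membrane, read 7.77, 7.58 and 7.68 and then 13.19, 13.45, 13.41 and 13.43 (5.69, SE 0.20, adjusted p = 8.14e-25), and Tomm70a, a second receptor, 7.01, 7.25 and 6.89 and 9.65, 10.08, 10.35 and 10.05 (2.98, SE 0.23, adjusted p = 1.4e-14). The 2-cell arrays were above the 1-cell arrays throughout in both receptors. Mitochondrial ribosomal proteins had 38 rises and 19 falls of 76 (median 0.48, 0.25 after median centring), from Mrpl43 at 3.76 to Dap3 at -3.85.

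Other metabolism was mixed, beside 26.3% rises and 34.4% falls over all genes. Glycolysis and pyruvate genes rose in 10 and fell in 11 of 27 (median 0.096, -0.35 after median centring). The lactate and pyruvate carrier gene Slc16a1 rose by 3.30, Pgam1 by 3.08 and the high-affinity glucose transporter gene Slc2a3 by 2.93, while Slc2a1 fell by 1.69. Hk2, of the first step of glycolysis (-1.61), and the pyruvate dehydrogenase subunits Dlat (-1.81) and Dld (-1.94) fell too. Of 15 serine and folate enzymes 6 rose and 6 fell. Gldc, of the glycine cleavage system, rose by 6.90 (SE 0.23), its partner Gcsh by 4.42 (0.16) and the serine synthesis enzyme Psat1 by 5.45 (0.41), and the folate enzymes Mthfd2 and Mthfd1 fell (differences -2.29 and -1.95). In sterol synthesis 8 rose and 7 fell of 22 (median -0.048, 0.066 as deposited): Dhcr7, the last enzyme, rose by 4.65 and the upstream enzymes Idi1 and Hmgcs1 fell (differences -2.41 and -1.96).

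Factors that act on chromatin and DNA methylation are of interest in clones because the donor genome has to be reset. DNA methylation and imprint-protecting factors fell in 9 and rose in 4 of 22 cases, beside 34.4% falls and 26.3% rises over all genes. Uhrf1, which brings the maintenance methyltransferase to replicated DNA, read 11.62, 11.43 and 11.49 and then 7.50, 7.74, 7.31 and 7.38, a difference of -4.03 (SE 0.19, adjusted p = 2.4e-21). Tet3, the egg's enzyme for oxidizing methylated cytosine, went from 8.01, 8.07 and 8.20 to 4.58, 4.38, 4.14 and 5.67 (-3.40, SE 0.44, adjusted p = 8.18e-09). In both genes all 2-cell arrays were lower. Dnmt1, the maintenance methyltransferase, fell by 1.71 (SE 0.22) and the de novo methyltransferase Dnmt3a fell by 2.12 (0.12), while Tet2 did not pass (0.32, adjusted p = 0.553). Methylation of lysine 9 of histone H3 (H3K9) marks silent chromatin that is known to resist reprogramming. The 19 genes that write, read or remove it rose in 6 and fell in 8 cases (median -0.15, 0.13 as deposited). The methyltransferase gene Ehmt2 rose by 3.45 (SE 0.35), the demethylase genes Kdm4c and Kdm3a by 3.27 (0.38) and 3.18 (0.33), and the methyltransferase gene Setdb1 fell by 2.15 (0.13). Kdm4b, a demethylase that has been used to improve cloning, read 3.66, 5.04 and 4.18 and then 5.68, 5.73, 5.56 and 5.68 (1.37, SE 0.37, adjusted p = 0.00145). The stages were apart, but the 1-cell mean lay under the overall median and the difference was 0.89 with the larger constant. Kdm4d, likewise used, stood at 5.80, 5.86 and 5.84 and 6.24, 5.56, 5.98 and 5.69 and did not pass (difference 0.036, SE 0.25, adjusted p = 0.915). Suv39h1 was not among the genes tested.

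Among 63 other histone modifiers 23 rose (36.5%) and 26 fell (41.3%), beside 26.3% rises and 34.4% falls over all genes. Of the arginine methyltransferases, beside Prmt6, Prmt1 rose by 3.77 (SE 0.26) and Prmt5, the enzyme that works with Wdr77, by 2.52 (0.15), whereas Prmt2 fell by 2.46 (0.10). The deacetylase gene Hdac1, a main deacetylase of the early embryo, read 7.64, 7.66 and 7.61 and then 11.03, 11.25, 11.11 and 11.02 (3.47, SE 0.25, adjusted p = 1.54e-15), with the stages apart. The Polycomb methyltransferase gene Ezh2 fell by 1.62 (0.074), its partner Jarid2 fell by 2.14, and the H3K36 methyltransferase gene Nsd1 fell by 2.70 (0.14). Chromatin remodelers and histone chaperones rose in 18 and fell in 22 of 52 (median 0.081, -0.44 after median centring). The egg's linker histone gene H1f8 fell by 3.61 (SE 0.18), and the chaperone gene Set and the helicase gene Ruvbl1 rose by 4.06 (0.14) and 3.02 (0.16).

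Genes of the 2-cell stage, which mark the major wave of genome activation, rose in 15 and fell in 4 of 22 cases (median 1.69). The shares over all genes were 26.3% rises and 34.4% falls. Another 16 of the 38 genes on this list, Zscan4c, Zscan4d and Usp17lc among them, were not tested. Tdpoz1, of a multicopy family, read 4.63, 4.75 and 4.96 and then 9.87, 10.32, 9.97 and 10.60, a difference of 5.41 (SE 0.38, adjusted p = 1.11e-15). Ubtfl1, a relative of a nucleolar transcription factor that the embryo needs at implantation, went from 5.94, 5.56 and 5.94 to 10.34, 10.99, 11.15 and 10.98 (5.05, SE 0.39, adjusted p = 1.27e-14). Both sets of 2-cell arrays were above those of the 1-cell stage. Zfp352, a zinc finger gene of the early 2-cell stage, rose by 1.85 (SE 0.27). Duxf3, of the Dux family that can switch on such genes, was under the overall median at both stages and did not pass (-0.26, adjusted p = 0.473). The falls included Obox2 (-2.94) and Obox5 (-2.22), which are oocyte members of the Obox family, and Arg2 (-1.59).

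Pluripotency and early lineage factors rose in 17, fell in 11 and did not pass in 15 of 43 cases (median 0.037, -0.005 after median centring). Over all genes 26.3% rose and 34.4% fell. Fbxo15, a target of the pluripotency network, rose by 5.13 (SE 0.18), Dppa4 by 3.88 (0.21), Zfp42, also known as Rex1, by 2.76 (0.35), Klf2 by 2.68 (0.28) and Wwtr1, a Hippo-pathway coactivator of the first lineage choice, by 3.98 (0.32). Pou5f1, the core factor OCT4, read 10.16, 10.39 and 10.15 and then 8.79, 8.57, 8.64 and 8.88, a difference of -1.52 (SE 0.12, adjusted p = 8.63e-15). Sox2, its partner, fell from 6.25, 6.92 and 6.77 to 3.33, 4.83, 4.50 and 4.31 (-2.41, SE 0.31, adjusted p = 8.76e-09), and Tfap2c, a trophectoderm factor, from 10.42, 10.46 and 10.03 to 5.50, 6.50, 7.28 and 6.48 (-3.86, SE 0.25, adjusted p = 5.13e-17). In these 3 genes every 2-cell array was below every 1-cell array. Gata3 fell by 4.37, and Cdx2, the trophectoderm factor of later stages, was under the overall median and did not pass (-0.51). Imprinted genes, which are read from 1 parental copy, rose in 8 and fell in 8 of 30. Mcts2 and Jade1 rose by 3.48 and 3.03, Sfmbt2, important for the placenta, by 2.64, and the receptor gene Igf2r by 2.29. Xist, the RNA that silences an X chromosome and is known to be read from the wrong copies in clones, went from 7.47, 7.28 and 7.54 to 9.26, 9.21, 8.79 and 8.89 (1.61, SE 0.20, adjusted p = 2.76e-09). All 4 2-cell values were above the 1-cell values.

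Stress genes moved in both directions, beside 26.3% rises and 34.4% falls over all genes. Heat-shock and folding genes rose in 16 and fell in 12 of 39 (median 0.17, -0.28 after median centring). Hspa1a, an inducible heat-shock gene that is among the first transcripts of the mouse embryo, read 6.20, 5.79 and 5.69 and then 8.97, 8.60, 8.82 and 8.80 (2.90, SE 0.31, adjusted p = 1.37e-10), with the stages apart. Dnajb9, a target of the endoplasmic reticulum stress response, rose by 4.90, Bag1 by 3.28 and Hspb1 by 3.05, and Dnajb4 fell by 3.95. In the list of p53, integrated stress and metallothionein genes 21 of 43 rose and 6 fell (median 0.49, 0.32 after median centring). Mt2, which binds metal ions, read 9.84, 8.64 and 9.48 and then 13.56, 13.66, 13.58 and 13.47 (4.25, SE 0.18, adjusted p = 1.42e-22), again without overlap. Its relative Mt1 rose by 5.76 on the probe set used and by 3.25 in the mean of its probe sets. Sesn2, a p53 and ATF4 target, rose by 4.28 (SE 0.22), Trib3 by 2.98 (0.34) and Cdkn1a, the p53 target p21, by 2.79 (0.26), while Ddit3, the stress factor CHOP, fell by 1.30 (0.32). Apoptosis genes rose in 18 and fell in 10 of 32 (median 0.76, 0.20 with a filter on the mean). Bid, which activates the mitochondrial death pathway, rose by 5.87 (0.33), and the caspase gene Casp8 (-3.59, SE 0.31) and the inhibitor gene Birc3 (-3.82, SE 0.10) fell. Antioxidant genes rose in 13 and fell in 9 of 32 (median 0.046, -0.011 after median centring): the peroxidase genes Gpx1 and Prdx4 rose by 3.99 and 3.94, and Glrx and the thioredoxin inhibitor gene Txnip fell (differences -3.48 and -3.42).

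The cell cycle and signalling lists held falls and rises in shares not far from the 34.4% and 26.3% of all genes. Cell cycle and mitosis regulators fell in 28 (41.8%) and rose in 20 (29.9%) of 67. The G1 cyclin gene Ccne1 rose by 3.0 (SE 0.15), and the inhibitor gene Cdkn1b, or p27, fell by 3.30 (0.25). The checkpoint kinase genes Ttk (-3.17, SE 0.15) and Bub1 (-2.01, SE 0.15) and the kinetochore gene Nuf2 (-2.78, SE 0.12) fell. DNA replication factors fell in 23 (42.6%) and rose in 16 (29.6%) of 54 (median -0.038). The fork protection gene Timeless (-3.69), Gins2, of the replicative helicase (-1.93), and Rfc3, of the clamp loader (-2.69), fell, while the polymerase gene Pole rose by 4.02 and Top2a by 1.87. Immediate early and signalling genes fell in 8 (27.6%) and rose in 7 (24.1%) of 29 (median -0.36). Dusp1, a phosphatase of the MAP kinase pathway, fell by 4.0, Egr1 fell by 3.19 and Fos fell by 1.78. Socs3, a feedback inhibitor of cytokine signalling, rose by 5.67 (SE 0.26).

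Genes of the donor cell type were also followed beyond the marker set. Of 25 measured cumulus cell genes 7 fell (28.0%), 2 rose (8.0%) and 16 did not pass, beside 34.4% falls and 26.3% rises over all genes, and 10 of them had a stage under the overall median. The rises were of Amhr2, the receptor of anti-Müllerian hormone, and Gja1, the gap junction protein connexin 43. Amhr2 read 5.19, 5.83 and 5.29 and then 11.59, 11.39, 11.87 and 11.53, a difference of 6.16 (SE 0.30, adjusted p = 1.49e-20), and Gja1 5.19, 5.28 and 4.98 and 10.85, 11.77, 11.40 and 10.83 (6.06, SE 0.27, adjusted p = 7.03e-22). In both genes the 4 2-cell arrays were far above the 1-cell arrays. In fertilized embryos the differences were 5.80 and 6.0. The steroidogenic enzyme gene Cyp11a1 fell by 1.84 and the estrogen receptor gene Esr2 fell by 1.69, and Foxl2, Fshr and Inha, of granulosa identity and function, did not pass (-0.15, -0.014 and 0.25). Matrix and fibroblast genes fell in 10 (30.3%) and rose in 5 (15.2%) of 33 (median -0.30). Mmp2, a matrix protease, fell by 2.46, and Lgals3 and Col18a1 rose by 2.40 and 2.38. Transporters, junction and polarity genes fell in 18 and rose in 14 of 44 (median -0.11, 0.13 as deposited), and the polarity genes Pard3 and Mark2 fell (differences -1.87 and -1.89). Sperm genes mostly did not pass (11 of 17), and neither did blood genes (13 of 19), where Gata1 was an exception with a rise of 4.48 (SE 0.41) that was 5.33 in fertilized embryos.

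The same 1-cell arrays were set beside 2-cell clones kept with α-amanitin, so the differences with and without the inhibitor share those arrays and are given only side by side. With amanitin 8086 genes differed from untreated 1-cell clones (54.2%), 3698 higher (24.8%) and 4388 lower (29.4%). These counts were 4558 and 4110 in the values as deposited and 2474 and 5312 after median centring. Untreated and amanitin 2-cell clones differed in 10327 genes (69.2%), 4424 higher (29.7%) and 5903 lower (39.6%) without amanitin. At the 1-cell stage amanitin and untreated clones differed in 64 genes (0.429%), 12 higher (0.0805%) and 52 lower (0.349%) with amanitin, of which 3 (0.0201%) and 29 (0.194%) passed 2-fold. The genes chosen here by their change between the stages share arrays with both amanitin comparisons, the 1-cell arrays with one and the untreated 2-cell arrays with the other, so their medians are a description with no test. The 3920 genes that rose had a median difference from the 1-cell stage of 1.548 without and -0.015 with amanitin, and of 1.886 between untreated and amanitin 2-cell clones. For the 5138 genes that fell, the medians from the 1-cell stage were -1.346 without and -0.386 with amanitin, and the median between untreated and amanitin 2-cell clones was -1.151. The poly(A) control transcripts averaged 9.595 in the amanitin 2-cell clones and the 18S probes 13.149. The controls added at hybridization averaged 10.882 there, beside 9.522 in untreated 1-cell and 9.587 in untreated 2-cell clones. The part of these controls in the differences was not tested.

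By group, ribosomal proteins had a median difference of 3.04 without and -0.23 with amanitin, ribosome assembly factors 1.39 and -1.54, the proteasome 0.97 and -2.08, the respiratory chain 1.21 and -0.90, and 2-cell stage genes 1.69 and -0.94. Oocyte genes were at -1.78 without and -0.85 with it. Single genes followed several courses. Obox6 was at 11.78 (SD 0.10, n = 4) in untreated and 4.38 (SD 0.90, n = 4) in amanitin 2-cell clones, beside 3.96 (SD 0.35, n = 3) at the 1-cell stage, and Rpsa at 12.12 (SD 0.096, n = 4), 7.20 (SD 0.77, n = 4) and 7.18 (SD 0.25, n = 3). Pabpn1l, which fell, was at 4.52 (SD 0.68, n = 4) and 6.94 (SD 0.13, n = 4) beside 10.72 (SD 0.061, n = 3) at the 1-cell stage, so it was lower at the 2-cell stage with the inhibitor too (-3.78, adjusted p = 1.05e-15). Cpeb1 fell by 3.08 without amanitin and differed by -0.39 with it (adjusted p = 0.0228). Ybx2 differed by -2.10 without and 0.85 with amanitin (adjusted p = 0.00615). Uhrf1 differed by -4.03 and -3.04, and Fbl, which rose untreated, by 4.23 and -0.85.

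**Figure D4:**
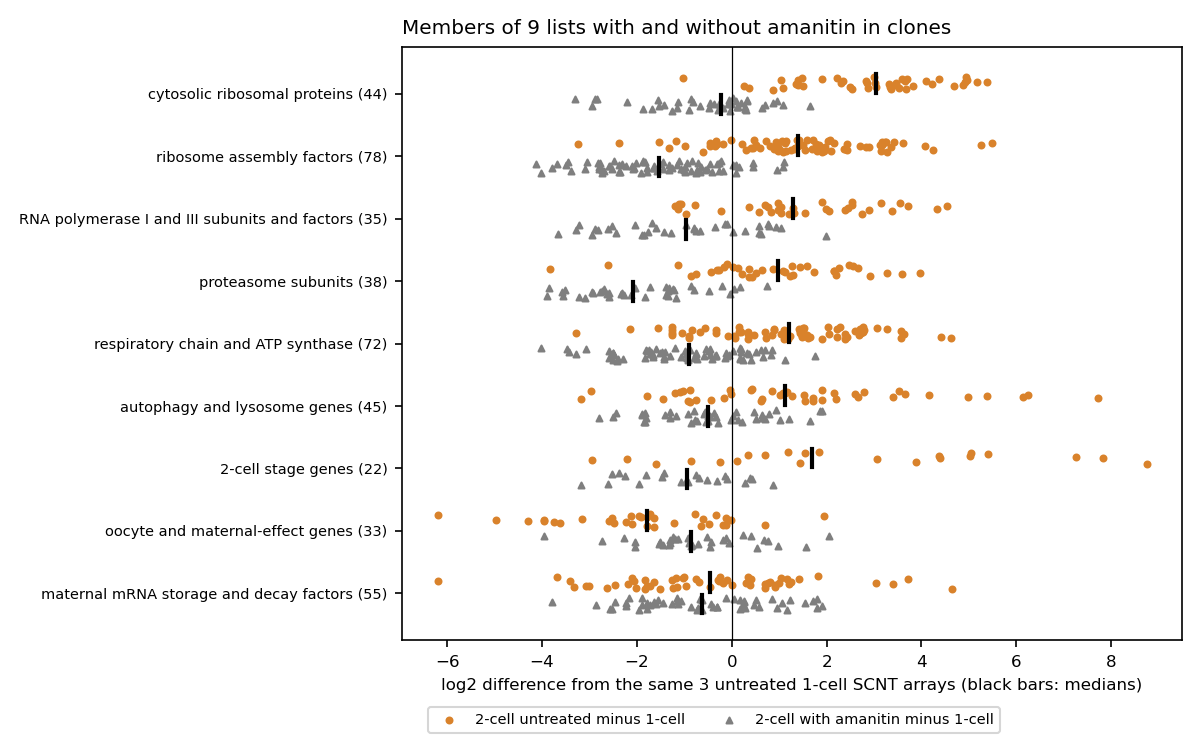
Log2 difference from the same 3 untreated 1-cell SCNT arrays (x axis) for the tested members of 9 gene lists, in untreated 2-cell SCNT embryos (orange circles) and those with α-amanitin (grey triangles); black bars are medians. The ribosomal protein median is 3.04 without and -0.23 with amanitin and that of oocyte genes -1.78 and -0.85; the series share the 1-cell arrays.

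The stage change in clones was compared with that in fertilized embryos, with no array in common, by the interaction in the same limma fit. The poly(A) controls averaged 3.6 and 7.986 at the 1-cell and 2-cell stage in clones but 5.879 and 7.107 in fertilized embryos, and their part in these differences was not tested. The change differed in 2836 of 14916 genes (19%), 1286 with a higher value in clones (8.62%) and 1550 with a lower one (10.4%). At least 2-fold differences were seen in 754 (5.05%) and 697 genes (4.67%). After median centring the split was 917 higher and 1932 lower. The fertilized embryos themselves changed in 8954 genes (60%), with 3849 rises (25.8%) and 5105 falls (34.2%). In the proteasome list 18 of 38 genes had a higher change in clones and the rest did not pass, with medians of 0.97 in clones and 0.090 in fertilized embryos. After median centring 12 were higher and 1 lower. In the respiratory chain 33 of 72 were higher and the rest did not pass (1.21 and 0.51), and 25 were higher after median centring. The counts of higher and lower changes were, among mitochondrial ribosomal proteins 24 and 1 of 76 (medians 0.48 and -0.15), among aminoacyl-tRNA synthetases 9 and 1 of 21 (5 and 2 after median centring), and among antioxidant genes 14 and 2 of 32. Lists with more lower than higher differences included pluripotency factors (1 higher, 13 lower of 43), 2-cell stage genes (1 and 7 of 22), ribosome assembly factors (4 and 15 of 78), RNA polymerases I and III (2 and 9 of 35) and histone modifiers (4 and 15 of 63). The nuclear pore (6 and 14 of 51), DNA replication (9 and 14 of 54), cell cycle (6 and 12 of 67), SR protein (5 and 9 of 34), elongation and Mediator (4 and 8 of 53), chromatin remodeler (4 and 8 of 52), H3K9 (1 and 5 of 19) and purine and pyrimidine synthesis lists (2 and 5 of 24) also had more lower ones. Several of these counts are small. They are to be read beside 8.62% higher and 10.4% lower over all genes, a lean that grew after median centring. Ribosomal proteins had medians of 3.04 in clones and 3.03 in fertilized embryos, with 4 genes higher and 2 lower.

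Single genes show what lay behind these counts. Psma5, a proteasome ring subunit, rose by 2.20 in clones and differed by -0.73 in fertilized embryos, an interaction of 2.94 (SE 0.23, adjusted p = 7.84e-12). Ndufa12 changed by 3.62 and 1.13 (interaction 2.49, adjusted p = 5.8e-07), and Atp5l by 2.21 and 0.081 (2.13, adjusted p = 0.00068). Tfap2c stood out on the lower side: its 1-cell mean was 10.30 (SD 0.24, n = 3) in clones and 10.30 (SD 0.41, n = 4) in fertilized embryos, and its 2-cell means were 6.44 (SD 0.73, n = 4) and 9.97 (SD 0.16, n = 4), which gave an interaction of -3.53 (SE 0.34, adjusted p = 4.37e-10). Zfp352 changed by 1.85 in clones and 4.59 in fertilized embryos (adjusted p = 6.99e-07), Ubtfl1 by 5.05 and 6.95 (adjusted p = 0.00809), and Sox2 by -2.41 and -0.71 (adjusted p = 0.00296). Other genes with the largest interactions were Col27a1 (4.02), Ripk3, a kinase of necroptosis (3.96), Acadvl, of mitochondrial fatty acid oxidation (3.91), Clcn2 (3.67) and Krtcap2 (3.65) on the higher side, and Cltrn (-4.96), Krt28 (-4.68), Gsdmc2 (-4.05) and Rpl39l, the germ-cell form of a ribosomal protein (-3.52), on the lower side. Ripk3, Acadvl, Clcn2 and Krtcap2 had fertilized means under the overall median at both stages, with Clcn2 at 3.16 and 3.40. Only untreated 2-cell clones had a Clcn2 mean over it (7.09). The 4 untreated 2-cell clone arrays alone can carry a gene past the filter, so such an interaction is in part a result of that choice. Without 1-cell replicate 3 the stage difference of Krt28 in clones (-1.07) did not pass (-0.82). Kdm4b and Xist did not pass (interactions 0.28 and 0.71, adjusted p = 0.774 and 0.0597).

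**Figure D5:**
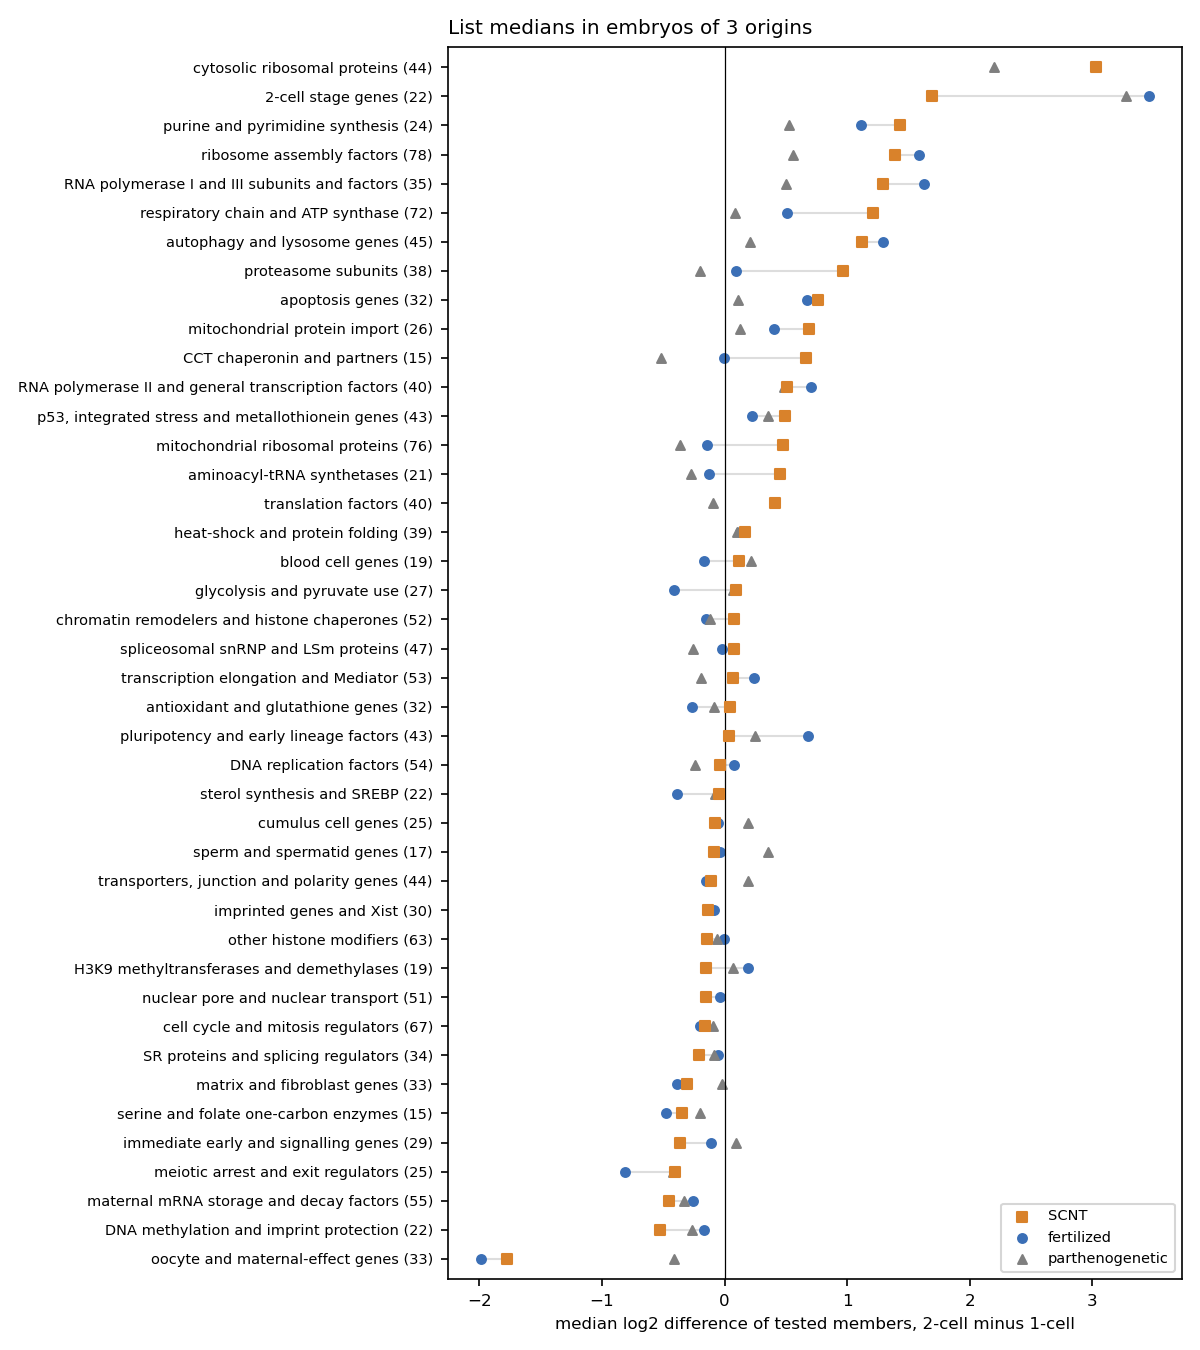
Median log2 difference, 2-cell minus 1-cell (x axis), of the tested members of 42 gene lists in SCNT (orange squares), fertilized (blue circles) and parthenogenetic embryos (grey triangles). The proteasome and respiratory chain medians are 0.97 and 1.21 in clones against 0.090 and 0.51 in fertilized embryos, and the 2-cell stage median is 1.69 against 3.46.

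Against parthenogenetic embryos the stage change of clones differed in 6026 genes (40.4%), 2634 higher (17.7%) and 3392 lower (22.7%), at least 2-fold in 1982 (13.3%) and 2158 (14.5%). After median centring the split was 2754 higher and 2761 lower. The poly(A) controls averaged 7.357 and 7.135 at the 1-cell and 2-cell stage of these embryos, beside 3.6 and 7.986 in clones, and their part was not tested. Parthenogenetic embryos themselves changed in 7328 genes (49.1%). Ribosomal proteins had a higher change in clones in 30 of 44 cases and the rest did not pass (medians 3.04 and 2.20), the respiratory chain in 44 and 1 of 72 (1.21 and 0.086), and the proteasome in 28 and 2 of 38 (0.97 and -0.20). Oocyte genes had a lower change in clones in 24 and a higher one in 2 of 33 cases, with medians of -1.78 and -0.41. Of the single genes, Nme1 changed by 5.67 in clones and -0.15 in parthenogenetic embryos (interaction 5.83, SE 0.37, adjusted p = 1.17e-15), Ctsz by 6.25 and 0.97 (5.27, SE 0.49, adjusted p = 1.9e-11), and Rps4l by 4.37 and -2.80 (7.17, SE 0.54, adjusted p = 1e-13). Gpr160, an orphan receptor gene, and the nucleotidase gene Nt5c had interactions of 6.09 and 5.49. On the lower side, Sox2 changed by -2.41 and 2.60 (-5.01, SE 0.42, adjusted p = 1.53e-12), Ezhip, an inhibitor of the Polycomb methyltransferase in germ cells, by -4.42 and 0.040 (-4.46), the oocyte gene Rfpl4 by -5.17 and -0.35 (-4.82), the kinase gene Eef2k, which slows translation elongation, by -4.42 and -0.095 (-4.32), and Ccdc14 by -6.39 and -2.11 (-4.28). In fertilized embryos Ezhip changed by -1.85 and Rfpl4 by -3.49.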

How the data were processed

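RNA of whole embryos was labelled and hybridized to Affymetrix mouse arrays. The authors deposited 1 linear intensity per probe set and array. From the values, these intensities were scaled so that the mean after trimming 2% at each end is 150 on every array, and the software is not given in the sources used here. The labels' protocols name the PicoPure kit for extraction and an Enzo kit for labelling. The constant 6.9 (20th percentile) was added before taking log2. Array medians spanned 0.822, over the limit of 0.5, so quantile normalization was applied to the 39 arrays. A probe set entered the fit (31153 of 45101 did) if 4 or more arrays exceeded 5.34, the overall median. The 4 untreated 2-cell SCNT arrays can meet this rule alone, and the 3 untreated 1-cell SCNT arrays cannot. With any of these 2-cell arrays left out, 268 of the 270 called named genes kept a value. Of these, 25931 have 1 gene in GEO's platform annotation (34945 of all have 1 gene, 932 several and 9160 none). Each gene was represented by its brightest kept probe set on average, which left 14916 genes, 14818 of them with their identifier in the RefSeq table. limma 3.58.1 in R 4.3.3 was fitted to all 10 groups (29 residual degrees of freedom, trended variance). On data simulated for this comparison, differences of 0.5, 1 and 2 were planted in 67, 67 and 66 of 14916 genes. Of these planted differences 14.93%, 46.27% and 92.42% were recovered, and 4.673% of 107 calls were false. In the measured data 9058 genes passed, and whether these shares hold with so many changes was not tested.

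Stages were compared by the difference of group means, and origins by the difference of stage changes. The members and lists were chosen with earlier results of these data known. Named genes are the 10 largest rises and falls without overlapping arrays, up to 6 called members of each list in its main direction, 3 in the other and 2 not called, the gene pairs, the 5 largest differences each way between origins, and 14 single genes, of which Gapdh and Suv39h1 were not tested. Chosen outside this rule, after their values were seen, were Atp5l, Bmp15, Ctsb, Ddit3, Gdf9, Hdac1, Hmgcs1, Khdc3, Nlrp5, Padi6, Prmt1, Prmt2, Prmt5, Psma5, Slc2a3, Tle6, Zfp352, Zp2 and the uncalled Inha. Alternatives were other scalings (the values as deposited, median centring), other constants (1.8 and 22.1), other filters, averaged probe sets per gene, weights for arrays, a fit without the variance trend or restricted to the groups compared, the replicate number as a block, and each array left out. The number of arrays limits the precision. Promoters came from RefSeq on GRCm38.p6, matched by gene symbol or identifier.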

Additional observations from a re-analysis of the deposited data

Results flagged for a closer look

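Among 32 genes examined (the largest stage changes and single genes chosen by name), 2 had a 2-cell array apart from the other 3. Ccdc14 read 4.267 on it against 3.856 to 3.922, and Oas1e 7.065 against 6.614 to 6.681. Chance sets such an array apart in about 1 in 20 groups.

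The stage change differed by the interaction test between clones and fertilized embryos in 6 of these genes. It was higher in clones for Actb, the cytoskeletal actin (1.011, from a change of 0.73 in clones that was lost after median centring), and for Mos (0.989). It was lower for Ewsr1 (-2.153), Ccdc14 (-2.086), Zp3 (-0.55) and Pou5f1 (-0.484). Between clones and parthenogenetic embryos 23 of the genes differed. Of the genes that rose, the change was higher in clones for Pramel7 (2.59), Calcoco2 (2.442), Wdr77 (2.19), Ppp2cb (2.086), Riox1 (1.945), Tmppe (1.853), Crxos (1.505), Rab20 (1.377) and Obox6 (1.22), and lower for the stress genes Hspa1a (-2.502) and Mt1 (-1.32). Of the genes that fell, the change was lower in clones for Ccdc14 (-4.279), Oas1e (-3.539), Ewsr1 (-3.256), Pabpn1l (-3.139), Crabp2 (-2.642), Gpr1 (-2.549), Gramd1c (-2.443), Zfp383 (-1.905), Tdrd12 (-1.83), Pou5f1 (-1.766), Zfp57 (-1.704) and Zp3 (-0.827). These genes were mostly picked for the size of their change in clones, so a smaller change elsewhere is in part the result of that choice.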

How the results depend on the processing

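The counts of genes called stayed within 1.5 times their reported values under every alternative run. With each array left out in turn, the stage change gave 8517 to 8787 calls, the difference from fertilized embryos 2427 to 2957, that from parthenogenetic embryos 5601 to 5916, and the amanitin comparisons 7402 to 7903 (2-cell with amanitin against 1-cell) and 9964 to 10191 (untreated against amanitin 2-cell). With the replicate number as a block the calls were 9036, 2787, 6003, 8047 and 10335. The numbers did not pair the arrays: residuals of same-numbered arrays correlated at 0.00256 to 0.0271 over 3 pairs, and 1 of 3 1-cell arrays matched its own number best. Of 270 named genes called, 3 lost the call in the values as deposited, 2 after median centring, and 3 single-array omissions lost 1 each; of 15 named genes not called, 5 passed after median centring. The direction turned for Pabpn1 (-0.515 as deposited and -0.839 after median centring), Taf4 (-0.354) and Ybx1 (-0.255, both after median centring), and on averaging each gene's probe sets for Hnrnpu (0.867), Rbm39 (0.665) and Srsf2 (0.168). The cause was not tested. Probe sets called in opposite directions were found for 5 of the 270. Signal limits low genes: in 2259 calls 1 stage lay under the overall median, and their differences move with the added constant.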
